A study of Mus musculus with 48 samples.

Results

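The expression of 33 genes that mark microglia and the macrophages of the brain's borders was followed through 48 mouse RNA-seq libraries labelled as astrocytes, glial cells that support neurons and take up glutamate. The genes were chosen by name, with earlier results of these data known, and all 33 were found among the 24421 gene symbols of every table. The libraries came from cortex, hippocampus and olfactory bulb. Development was sampled at postnatal day 1 (P1), P7 and P14, with 3 libraries for each age and region except 4 for cortex at P14, and the labels used here give these libraries no genotype or treatment. At P28, Gabbr1 control and Gabbr1 cKO libraries were made from each region, Gabbr1 encoding a subunit of the GABA-B receptor and cKO being the labels' term for the knockout group. There were 4 control and 4 cKO libraries for cortex, 2 and 4 for hippocampus, and 3 and 3 for olfactory bulb. The labels name tamoxifen for controls and cKO alike in hippocampus and olfactory bulb at P28. In cortex they name it for controls 3 and 4 and cKO 4, and give no treatment for the other 5 libraries. The labels do not say which promoter drove recombination, how astrocytes were separated from other cells, or which libraries share an animal, so p-values measure only the spread between these libraries.

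Microglia enter the brain from the yolk sac before birth, multiply in the first postnatal weeks and then take on a mature program of receptors for neuronal and purine signals. They depend on the growth factor receptor Csf1r, make the C1q chains that start the classical complement cascade, and clear debris through Trem2, Fc receptors and lysosomal proteases. Macrophages of the meninges and vessel walls are related cells marked by Mrc1, Pf4 and Lyz2.

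The tables held deposited normalized values, each a gene's read count divided by 1 factor per library. Gene reads ranged from 1773226 to 15008466 per library. The ribosomal RNA precursor Rn45s took 13.7% to 38.0% of them in 46 libraries, and less than 1% in hippocampus P28 cKO replicate 2 and olfactory bulb P28 control replicate 2. Astrocyte genes, 12 transcripts such as that of the water channel Aqp4, summed to 512348 to 571752 normalized units in cortex at P14 and to 5834 to 7885 in olfactory bulb at P1. In the same libraries the members summed to 2652 to 5667 and to 684 to 760.4, most of the latter being Sall1 (539.9 to 645). Gabbr1 itself was 1440.2 ± 475 in cortex controls and 133 ± 55.7 in cKO (SD, n = 4 each, log2 difference -3.45, SE 0.29, limma adjusted p = 4.40e-05). In hippocampus and olfactory bulb its cKO libraries also lay below all controls, with log2 differences of -1.84 and -1.48 that did not pass the test over all genes (limma adjusted p = 0.936 and 0.877).

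The members took a small share of the reads, lowest at P1 in hippocampus and olfactory bulb among the developmental ages by group mean. Shares are of gene reads without Rn45s, and leave out Sall1, which varied apart from the other 32 members. In cortex the share was 0.0481% ± 0.0185 (SD, n = 3) at P1, 0.0655% ± 0.0471 (n = 3) at P7 and 0.101% ± 0.0321 (n = 4) at P14, and the P1 and P14 libraries overlapped. In hippocampus it was 0.0137% ± 0.00264 at P1, 0.0680% ± 0.0386 at P7 and 0.0263% ± 0.0143 at P14 (n = 3 each). Every P7 hippocampal library was above every P1 library, and P14 overlapped both. Olfactory bulb had 0.00614% ± 0.00265, 0.0328% ± 0.0177 and 0.0223% ± 0.00402 at the 3 ages (n = 3 each), with P1 below every later library. In bulk libraries fewer microglia and less microglial RNA per cell cannot be told apart.

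**Figure D1:**
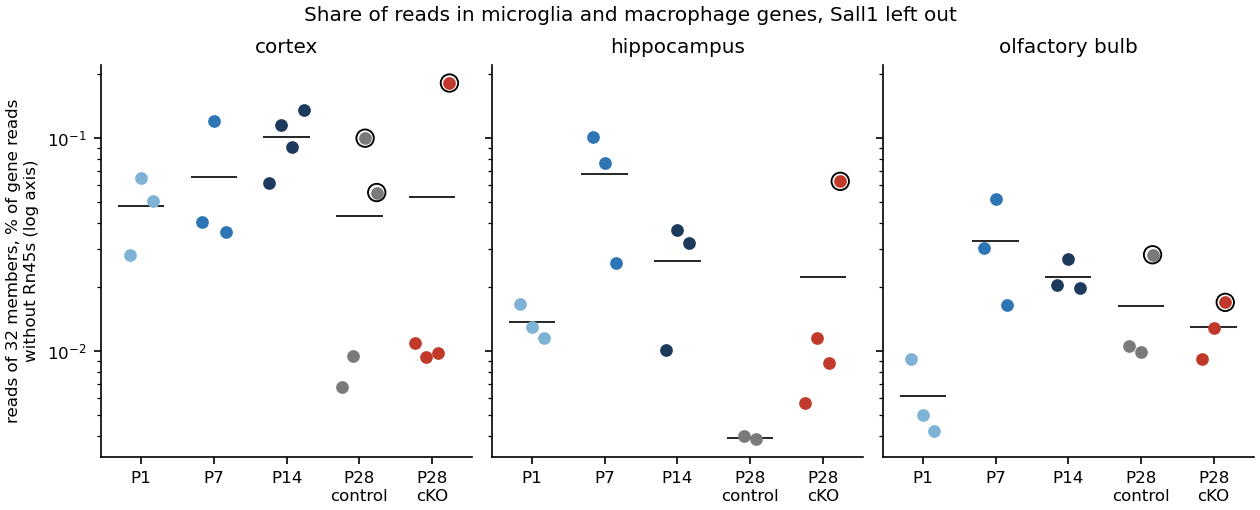
Each point is a library, with the reads of 32 members (Sall1 left out) as a percent of gene reads without Rn45s on a log axis, by region, age and genotype; bars are group means and rings mark P28 libraries labelled YC157 and above. The P1 libraries of olfactory bulb sit below its P7 and P14 libraries, and the ringed cortical libraries sit above the other P28 cortical libraries.

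In most tables the members varied together from library to library. For each member with a mean of at least 10 in a table, the filter for testing, log2(value + 1) was correlated with the mean of the other tested members over the 6 to 10 libraries of that table. These points share library and depth, so r is a description. The median r over tables was 0.963 for Fcrls, an Fc-receptor-like scavenger receptor, 0.941 for C1qc, 0.935 for Csf1r and 0.893 for the lysosomal protease cathepsin S (Ctss). In P28 olfactory bulb 4 of 12 tested members had a negative r, Ptprc -0.727, Ikzf1 -0.471, Cd53 -0.244 and Lyz2 -0.132. The lowest medians were 0.291 for Pf4, tested in 2 tables, and 0.292 for Sall1, tested in all 6 with r from -0.687 to 0.457. Sall1 is a transcription factor of microglial identity that neural progenitors also use.

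The members' promoters were searched for the motif of PU.1, the myeloid factor encoded by Spi1. RefSeq promoters (GRCm38.p6, 250 bases before to 50 after the start) were listed for 25 of the 33 members. The PU.1 core GAGGAA, on either strand, occurred in at least 1 promoter of 16 of these 25 genes (64%), against 31.3% of all 27025 genes in the table. The longer form GAGGAAGT, which contains the core, occurred in 4 of 25 (C1qc, Cd53, Ctss and Pf4, 16%) against 3.69% of all genes. The ETS-IRF composite GGAANNGAA, whose match can overlap a core, occurred in 2 of 25 (8%) against 9.42%. A match of letters is a description and not a site of binding. The promoters below are those of Ctss and C1qc, which hold the longer form, of Siglech and Mrc1, 2 members with unlike courses over age, and of Sall1, which varied apart from the rest and held no match in any of its 3 listed promoters (the most upstream is shown). Sequences run 5′ to 3′ along the gene's strand, and capitals mark motif matches.
Ctss, chr3:95526536-95526835, plus strand: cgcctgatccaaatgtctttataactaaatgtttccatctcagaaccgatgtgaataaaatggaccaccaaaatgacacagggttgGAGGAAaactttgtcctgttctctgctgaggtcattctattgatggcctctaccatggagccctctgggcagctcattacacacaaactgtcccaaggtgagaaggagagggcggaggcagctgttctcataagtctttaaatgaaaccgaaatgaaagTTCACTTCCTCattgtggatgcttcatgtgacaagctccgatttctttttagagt
C1qc, chr4:136892865-136893164, minus strand: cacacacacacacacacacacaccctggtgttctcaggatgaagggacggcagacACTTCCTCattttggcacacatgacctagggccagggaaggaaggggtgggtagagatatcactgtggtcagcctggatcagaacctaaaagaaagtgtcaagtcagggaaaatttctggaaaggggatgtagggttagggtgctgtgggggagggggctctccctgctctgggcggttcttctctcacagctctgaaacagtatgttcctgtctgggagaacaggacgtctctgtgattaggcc
Siglech, chr7:55767934-55768233, plus strand: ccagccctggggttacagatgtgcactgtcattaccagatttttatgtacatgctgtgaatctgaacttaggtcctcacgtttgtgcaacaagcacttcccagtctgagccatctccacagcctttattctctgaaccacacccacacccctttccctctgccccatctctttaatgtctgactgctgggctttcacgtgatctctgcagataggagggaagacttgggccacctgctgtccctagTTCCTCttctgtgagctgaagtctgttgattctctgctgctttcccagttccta
Mrc1, chr2:14229164-14229463, plus strand: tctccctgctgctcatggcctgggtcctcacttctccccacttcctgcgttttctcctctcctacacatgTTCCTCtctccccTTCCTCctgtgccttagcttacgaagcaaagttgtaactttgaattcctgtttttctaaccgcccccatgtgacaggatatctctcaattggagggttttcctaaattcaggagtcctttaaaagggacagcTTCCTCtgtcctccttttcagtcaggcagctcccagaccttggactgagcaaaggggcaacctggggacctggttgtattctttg
Sall1, chr8:89044113-89044412, minus strand: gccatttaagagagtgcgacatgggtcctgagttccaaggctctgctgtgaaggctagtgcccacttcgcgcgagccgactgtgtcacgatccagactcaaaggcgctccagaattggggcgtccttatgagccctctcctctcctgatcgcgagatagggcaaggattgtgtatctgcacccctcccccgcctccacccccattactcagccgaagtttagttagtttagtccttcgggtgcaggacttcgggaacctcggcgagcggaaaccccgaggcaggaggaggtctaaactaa

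In cortex most members were higher at P14. Of the 31 members tested, 20 were higher at P14 than at P1 (limma adjusted p under 0.05 over 11822 genes), where 24.0% of all tested genes were higher, and 1 was lower, where 40.3% were lower. The median log2 difference was 1.38 for tested members and -0.27 for all tested genes. Between P7 and P14, 18 of 31 rose (18.6% of all genes) and 0 fell (31.3% of all genes), the 18 going to 9 without P7 replicate 1 or P7 replicate 3 and to 11 without P14 replicate 4. From P1 to P7, 3 rose (15.6% of all genes), namely Sall1, P2ry12 and Siglech, and 0 fell (18.1% of all genes). P7 replicate 2 was the highest of the 3 P7 libraries for all 33 members, and without it the P1 to P7 median went from 0.26 to -0.17. The order of the P7 libraries was not counted over all genes. Ccl3 and Ccl4 did not pass the filter. Oligodendrocyte genes also rose in cortex, 7 of 8 tested between P1 and P14 (median log2 4.02) and 8 of 8 between P7 and P14 (3.75), with list sums of 342 to 406 at P1, 870.1 to 1054 at P7 and 15369 to 26158 at P14. Astrocyte genes were higher at P14 than P1 for 11 of 12 tested (median log2 2.49), and neuron genes were lower for 10 of 12 (-3.20). The part of these lists in the members' values was not tested.

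Receptors for purine and neuronal signals rose together in cortex, 4 of 4 between P1 and P14. P2ry12, the ADP receptor that guides microglial processes, had normalized values of 79.3, 76.1 and 62.9 at P1, 108, 367 and 147 at P7, and 351, 676, 461 and 776 at P14. Every later library exceeded every P1 library, and the P14 mean was 7.78 times that of P1 (log2 difference 2.88, SE 0.35, adjusted p = 7.42e-06, limma). Cx3cr1, the receptor for the neuronal chemokine Cx3cl1, read 37.5, 86.6 and 79.3 at P1, 64.0, 215 and 97.4 at P7, and 148.3, 270.4, 209.7 and 297 at P14. Its P1 and P14 libraries did not overlap (log2 1.80, SE 0.38, adjusted p = 0.000937, limma). P2ry13, another ADP receptor, and Gpr34, a lysophospholipid receptor, were higher at P14 than P1 by 1.28 and 1.38 on the log2 scale. P2ry12 and P2ry13 lie on the opposite strand within Med12l, and Gpr34 within Cask. Whether reads were counted by strand is not given in the sources used here, and without strand reads of those genes cannot be told apart from them. Csf1r read 92.3, 185 and 126 at P1, 139, 533 and 150.002 at P7 and finally 376, 594, 519.7 and 829.6 at P14, with P14 above every P1 library (log2 2.10, SE 0.40, limma adjusted p = 0.000439). It shares 15.1% of its exon bases with Hmgxb3 on the opposite strand.

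The largest rises were in surface genes of mature microglia. Selplg, the selectin ligand PSGL-1, read 3.13, 1.26 and 4.62 at P1, 2.31, 11.6 and 8.16 at P7, and 45.8, 91.8, 86.4 and 125 at P14. P14 stood apart from both earlier ages, 29.1 times P1 and 11.9 times P7 (log2 4.47, SE 0.51, adjusted p = 4.14e-06 against P1, limma). Siglech, a sialic-acid-binding lectin, read 14.5, 13.6 and 9.75 at P1, 16.2, 83.5 and 25.8 at P7 and 115, 171, 139.7 and 237 at P14 (log2 3.58 against P1, SE 0.43, adjusted p = 7.29e-06, limma). Tmem119, a membrane protein used to tell microglia from other macrophages, read 7.96, 4.53 and 5.90 at P1, 4.62, 11.6 and 4.53 at P7, and 39.7, 68.5, 29.0 and 83.1 at P14. Its P1 and P7 libraries overlapped and P14 lay above both (log2 2.89 against P1, SE 0.44, adjusted p = 6.17e-05, limma). With Fcrls and the secreted Olfml3, higher at P14 than P1 by 1.83 and 2.09, all 5 genes of this group rose both from P1 to P14 and from P7 to P14.

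Complement, phagocytic and leukocyte genes rose in part. The C1q chains C1qa, C1qb and C1qc were higher at P14 than at P1 by 1.62, 1.30 and 1.37 (log2), and none of the 3 passed the test from P1 to P7. Of Trem2 and its partners, the adaptor Tyrobp rose by 1.09, while Trem2 (0.89), the adaptor Fcer1g (0.86) and the IgG receptor Fcgr3 (0.35) did not pass. Fcgr3 has close relatives, and how shared reads were counted is not given. Ctss rose by 2.07 and the lysosomal membrane protein Laptm5 by 1.69, and the lysosomal glycoprotein Cd68, at 0.51, did not pass. All 4 leukocyte genes were higher at P14 than P1, Ptprc (CD45) by 1.61, the tetraspanin Cd53 by 2.03, Aif1 (Iba1) by 1.5 and Ly86 by 1.49. None of the transcription factors Sall1 (0.34), Spi1 (0.91), Irf8 (0.19) and Ikzf1 (0.70) passed between P1 and P14. Per exon length, Tyrobp had the highest mean level of the members at P1, P7 and P14 in cortex, with 35.2 ± 7.61, 30.002 ± 13.4 and 58.4 ± 16.3 RPKM (SD, n = 3, 3 and 4). The length was the union of a gene's annotated exons. Next were Fcer1g at P1 (29.5 ± 13.1 RPKM) and P2ry12 at P7 (26.5 ± 17.6 RPKM), which did not differ from Tyrobp beyond the spread. P2ry12 was at 9.71 ± 1.19 RPKM at P1 and 57.1 ± 18.7 RPKM at P14, where it did not differ from Tyrobp beyond the spread.

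**Figure D2:**
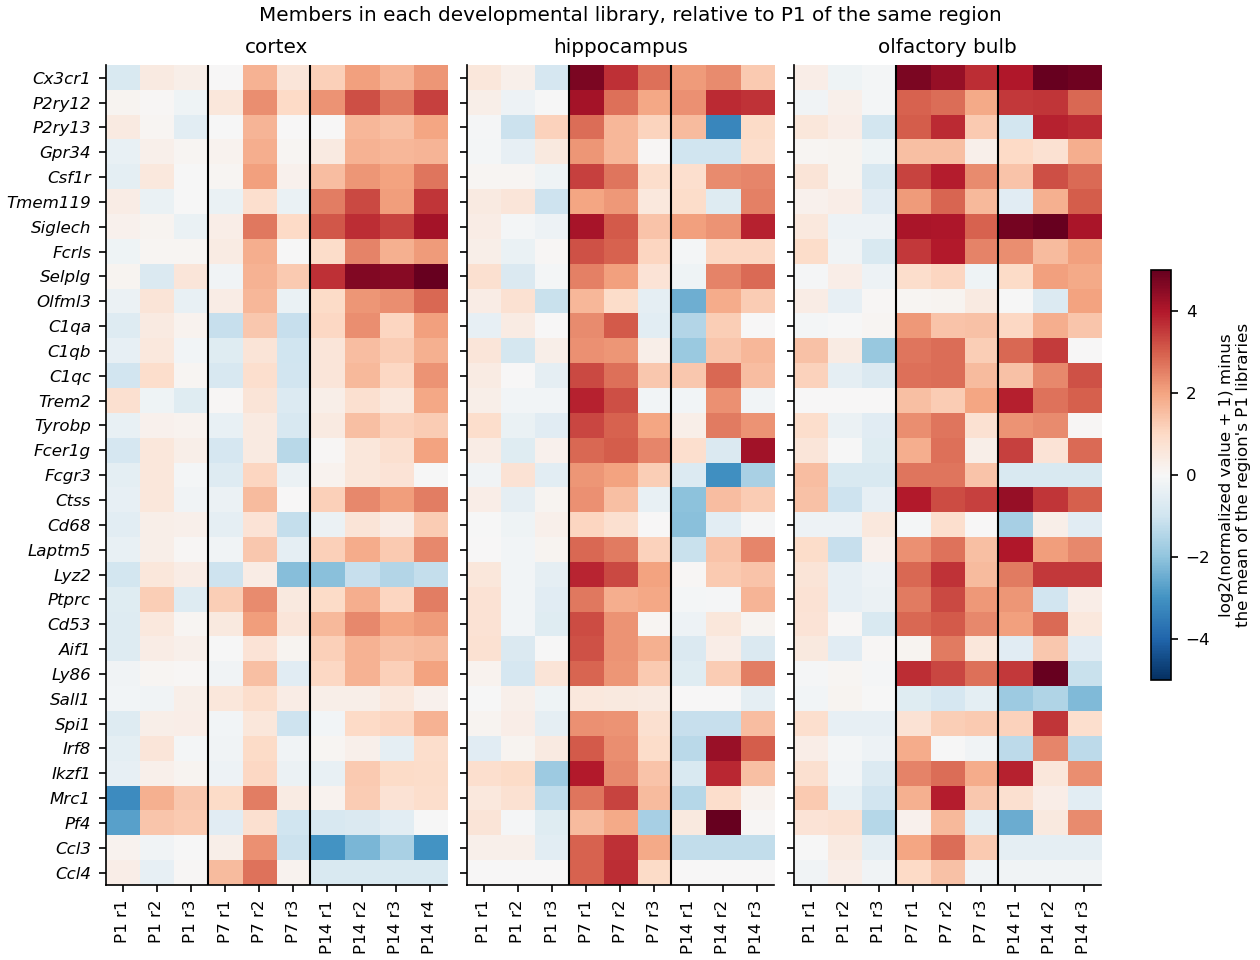
Rows are the 33 members, columns the developmental libraries of each region, and colour is log2(normalized value + 1) minus the mean of the same region's P1 libraries. Selplg and Siglech stand out at P14 in cortex, the first P7 library of hippocampus is the highest P7 library for 26 of 33 members, and Sall1 falls with age in olfactory bulb. The order of libraries was not counted over all genes.

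In hippocampus the median of tested members rose to P7 and was lower again at P14. Of 25 members tested, 10 were higher at P7 than P1 (11.2% of all 11578 genes were higher) and 0 were lower (6.92% of genes), with a median log2 difference of 2.13 against -0.03 for all tested genes. From P7 to P14, 0 rose (12.5% of genes) and 6 fell (17.7% of genes), with a median of -1.19 against -0.19. The 6 of 25 include Sall1 and are near the share of all genes, so nothing about the members is read from that count. Against P1, 5 were higher at P14 (21.0% of genes) and 0 were lower (28.5% of genes). Other lists moved the same way in hippocampus. Endothelial genes were higher at P7 than P1 for 4 of 8 tested (median log2 2.67) and lower at P14 than P7 for 7 of 8 (-4.46), with list sums of 71.9 to 155.3 at P1, 384 to 730.04 at P7 and 8.96 to 178 at P14. Dissociation response genes, known to rise while tissue is taken apart, were higher at P7 for 8 of 15 (1.84) and lower at P14 for 13 of 15 (-4.89). Astrocyte genes instead rose at both steps, for 12 of 12 from P1 to P7 (2.47) and 11 of 12 from P7 to P14 (1.09). Neuron genes were higher for 1 of 12 and lower for 4 from P1 to P7 (-0.23), and lower for 9 from P7 to P14 (-2.31). The part of these lists in the members' values was not tested. The 8 members under the filter were Tmem119, Selplg, C1qa, Trem2, Aif1, Spi1, Ccl3 and Ccl4. P7 replicate 3 was the lowest P7 library for 32 of 33 members, an order not counted over all genes. The count of 10 fell to 2 without P7 replicate 1, to 3 without P7 replicate 2, to 4 without P1 replicate 3 and to 5 without P1 replicate 2. The count of 6 fell to 2 without P7 replicate 1 and to 1 without P7 replicate 2, and that of 5 went to 2 without P1 replicate 3 and to 10 without P14 replicate 1.

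Cx3cr1 separated the 3 hippocampal ages. It read 8.19, 6.24 and 2.46 at P1, 158.8, 76.3 and 40.7 at P7, and 25.8, 30.9 and 14.3 at P14. No ages overlapped, the P7 mean being 16.3 times that of P1 (log2 3.71, SE 0.60, adjusted p = 0.00111, limma) and 3.88 times that of P14 (adjusted p = 0.0443, limma). The fall from P7 was lost without P7 replicate 1, P7 replicate 2 or P14 replicate 3. P2ry12 read 24.2, 16.0 and 19.0 at P1, 365, 136 and 76.6 at P7 and 99.96, 271 and 247 at P14. P7 and P14 libraries overlapped (log2 0.27, adjusted p = 0.733, limma). Csf1r, Siglech and C1qc were higher than at P1 by 2.34, 2.88 and 2.47 at P7 and by 1.88, 2.71 and 1.91 at P14 (log2). Fcgr3 fell from 38.0, 33.2 and 18.9 at P7 to 4.30, 0 and 1.79 at P14, without overlap (log2 -3.60, SE 0.72, adjusted p = 0.00324, limma). This was the one fall of the 6 that held whichever library was left out. Mrc1, Lyz2, Fcrls and Sall1 fell by 2.67, 2.11, 1.74 and 0.61 on the log2 scale.

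In olfactory bulb many members had few reads at P1. Of 17 members tested, 7 were higher at P7 than P1 (7.59% of all 11490 genes) and 0 were lower (2.98% of genes). Between P7 and P14, 0 rose (20.4% of genes) and 2, Mrc1 and Sall1, fell (26.6% of genes). At P14, 9 were higher than at P1 (24.8% of genes) and 1, Sall1, was lower (31.4% of genes). The medians were 2.54, 0.10 and 2.32 (log2), against 0.01, -0.20 and -0.24 for all tested genes. With a pseudocount of 8 the first and last became 1.32 and 1.26, and the 0.10 turned to -0.33 without a filter and to -0.31 without P7 replicate 3. Endothelial genes were higher at P14 than P1 for 8 of 8 tested (median log2 4.34), with list sums of 31.7 to 44.8 at P1 and 386 to 1777 at P14. Oligodendrocyte precursor genes were higher for 4 of 6 (2.60) and astrocyte genes for 12 of 12 (5.05). Neuron genes were higher for 1 of 12 and lower for 9 (-2.71). The part of these lists in the members' values was not tested. The 16 members under the filter were the 8 of hippocampus with C1qc, Tyrobp, Fcgr3, Ptprc, Cd53, Irf8, Ikzf1 and Pf4. Cx3cr1 read 1.08, 0.440 and 0.552 at P1, 42.4, 33.6 and 20.8 at P7, and 25.8, 95.1 and 47.2 at P14. Each P1 library held 3 or fewer reads of it, so no fold is given, and the fitted log2 differences of 4.26 and 4.90 depend on the pseudocount of 1 (adjusted p = 0.00111 and 2.26e-05, limma). P2ry12 read 9.68, 13.7 and 10.5 at P1, 93.4, 82.9 and 43.9 at P7 and 139, 141.97 and 88.9 at P14. Its P14 mean was 10.9 times that of P1 (log2 3.32, SE 0.35, adjusted p = 1.62e-05, limma), and P7 and P14 overlapped. Siglech, Ctss, Lyz2, Laptm5, Csf1r, Fcer1g and Fcrls made up the rest of the 9, with log2 differences from 1.98 to 4.94. The 4.94 is that of Siglech, whose P1 libraries held 2, 0 and 0 reads, and of these genes each but Csf1r had 3 or fewer reads in at least 1 P1 library, so these values depend on the pseudocount too.

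**Figure D3:**
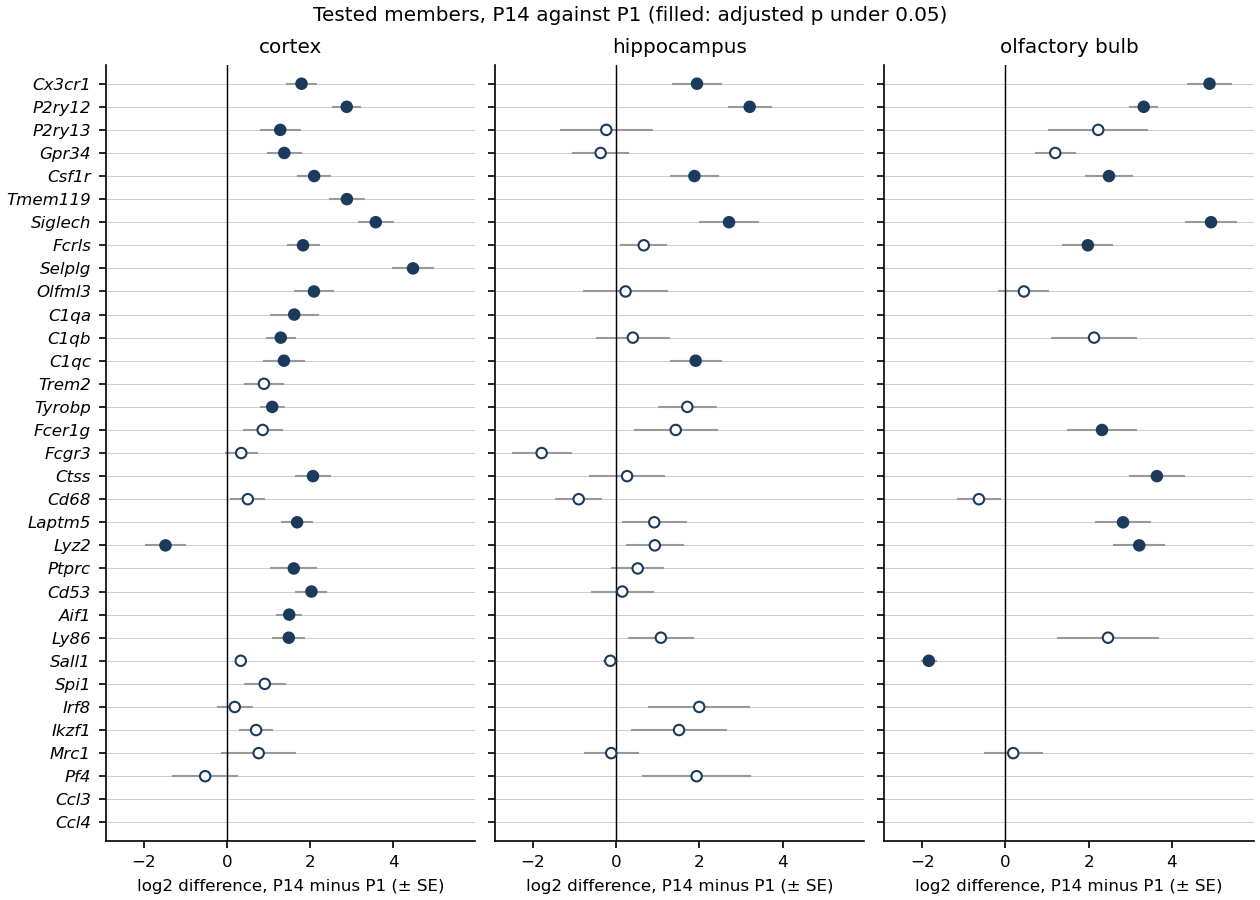
Points are log2 differences between P14 and P1 with SE for the members tested in each region; filled points have a limma adjusted p under 0.05, and members with no point did not pass the filter. In cortex the filled points lie right of 0 except Lyz2 (-1.47), and in olfactory bulb except Sall1 (-1.84).

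Sall1 followed its own course. In cortex it read 215, 204 and 289 at P1, 349.7, 429 and 304 at P7, and 286, 285, 337 and 274 at P14, higher at P7 than P1 by 0.61 (log2, SE 0.16, adjusted p = 0.00835, limma). In hippocampus it read 207, 250.8 and 183 at P1, 302, 296 and 288 at P7 and 215, 213 and 155.9 at P14. In olfactory bulb it read 539.9, 645 and 585 at P1, 390.2, 332 and 418 at P7 and 167, 205 and 128 at P14. Ages in the bulb did not overlap, and the P1 mean was 3.54 times that of P14 (log2 -1.84, SE 0.19, adjusted p = 1.22e-05, limma). At P1 in olfactory bulb Sall1 had the highest level of the members per exon length, 47.97 ± 5.02 RPKM (SD, n = 3), when Csf1r was at 0.602 ± 0.304 RPKM. The neuron list of 12 genes summed to 18979 to 23037 normalized units in the bulb at P1 and 4800.3 to 5840.1 at P14, and its part in the Sall1 values was not tested.

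Among genes of border macrophages, Mrc1 did not keep step with P2ry12. Mrc1, the mannose receptor, read 11.4, 382 and 283 in cortex at P1, 212, 648 and 145.02 at P7, and 122, 269, 181 and 205 at P14. Its P1 libraries spanned the range of P14, and P1 replicate 1 was low. The same library was low in the platelet factor Pf4 (3.69, 80.1 and 76.5 at P1) and in the lysozyme Lyz2 (38.1, 109 and 96.5). Over the 3 cortical P1 libraries, 9 endothelial genes summed to 52.3 to 587 and 9 mural and fibroblast genes to 78.4 to 682, and their part in the Mrc1 values was not tested. Mrc1 reads per P2ry12 read were 0.143, 5.02 and 4.50 at P1, 1.96, 1.76 and 0.988 at P7, and 0.348, 0.397, 0.393 and 0.264 at P14 in cortex. In hippocampus this ratio was 1.06 to 5.28 at P1, 0.899 to 3.88 at P7 and 0.183 to 0.342 at P14. Olfactory bulb gave 1.47 to 8, 1.16 to 5.86 and 0.234 to 0.386. In each region the P14 ratios lay below all P7 ratios, and below all P1 ratios except that of cortical P1 replicate 1. Lyz2 reads per P2ry12 read were lower at P14 than at both earlier ages in cortex (0.0408 to 0.0568) and hippocampus (0.0215 to 0.0290), and overlapped across ages in olfactory bulb, at 0.0645 to 0.296, 0.149 to 0.353 and 0.1 to 0.3125. For Pf4 the P14 ratios overlapped those of P1 in cortex, and those of both P1 and P7 in hippocampus and olfactory bulb. Lyz2, which has a close paralogue in Lyz1, was the one tested member lower in cortex at P14 than P1 (16.6, 32.7, 26.2 and 31.7 at P14, log2 -1.47, SE 0.50, adjusted p = 0.0199, limma). That call was lost without P1 replicate 2, P1 replicate 3 or P14 replicate 1. In olfactory bulb Lyz2 was higher at P14 than P1 (13.9, 27.6 and 27.8 against 2.87, 0.881 and 1.10, log2 3.22, adjusted p = 0.00122, limma). Pf4 in hippocampus at P14 read 7.52, 235 and 5.37, so that replicate 2 held most of it.

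The chemokines Ccl3 and Ccl4, early-response genes of microglia, were at or near 0 at P14. Ccl3 in cortex read 7.96, 6.04 and 6.67 at P1, 8.66, 37.1 and 2.72 at P7, and 0, 0.629, 1.58 and 0 at P14. In hippocampus it read 1.78, 1.78 and 0.614 at P1, 16.9, 28.2 and 7.57 at P7, and 0 in all 3 libraries at P14. In olfactory bulb it read 0.358, 0.881 and 0 at P1, 4.30, 8.58 and 2.37 at P7, and 0 in all 3 at P14. In each region every P14 library lay below every P7 library, and Ccl4 was at 0 in all 10 P14 libraries. Neither chemokine passed the filter. In the fit without a filter, Ccl3 fell between P7 and P14 in cortex, hippocampus and olfactory bulb by 2.96, 4.04 and 2.47 (log2, limma adjusted p = 0.00489, 0.000668 and 0.00105). In olfactory bulb it held only 7, 12 and 4 reads at P7. Reads without Rn45s there were 3204873 to 3964193 per library at P7 and 1498834 to 2136437 at P14. The olfactory bulb value thus rests on few reads and on the pseudocount of 1. Against a limit of 3 reads per library, hippocampus at P14 was at least 4.42-fold lower than at P7. Genes known to rise while tissue is dissociated, 18 such as Fos, summed to 2034 to 2695 normalized units in hippocampus at P1, 5785 to 12490.3 at P7 and 514 to 747 at P14. In cortex these sums were 1103 to 2421, 1804 to 3543 and 731 to 1631, in olfactory bulb 718 to 878, 1455 to 3521 and 628 to 1104, and their part in the chemokine values was not tested.

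**Figure D4:**
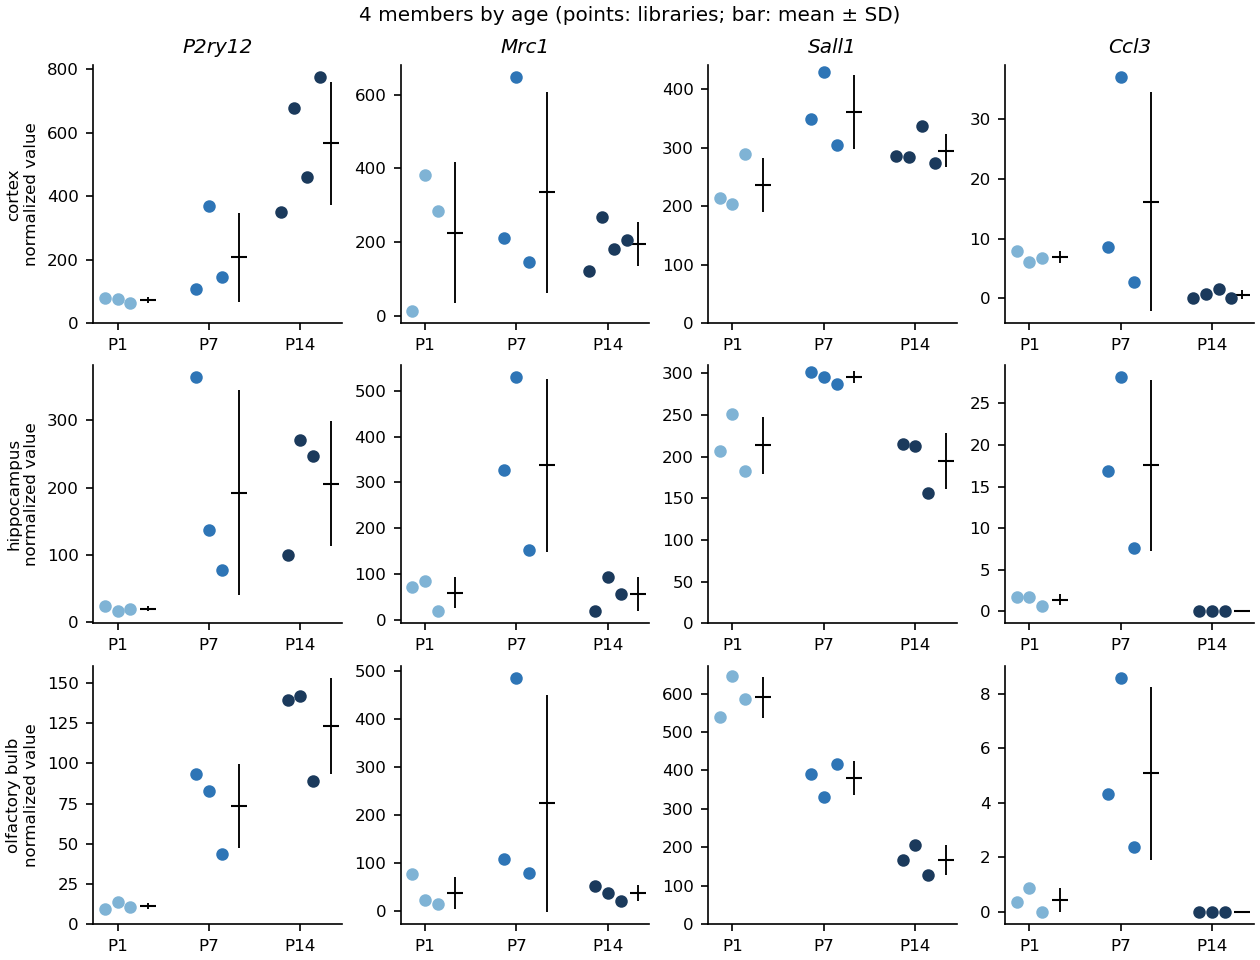
Normalized values of P2ry12, Mrc1, Sall1 and Ccl3 in each library (points) with mean ± SD (bars), by age, for cortex, hippocampus and olfactory bulb. P2ry12 is lowest at P1, Mrc1 has its highest value in a P7 library of each region, Sall1 falls with age in olfactory bulb, and Ccl3 is at or near 0 at P14.

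No member passed the test between Gabbr1 cKO and control at P28. In cortex 0 of 25 tested members were called by limma (0.00982% of all 10188 genes, which is Gabbr1), in hippocampus 0 of 16 (0% of 11639 genes) and in olfactory bulb 0 of 12 (0% of 11539 genes). At an unadjusted p under 0.05, limma gave 0, 2 and 0 members, among 221 of 10188, 296 of 11639 and 349 of 11539 genes. Unadjusted edgeR gave 0, 6 and 1 members. No edgeR count over all genes stands beside these, so nothing is read from them. With adjustment edgeR and DESeq2 gave 0 in each region. In the same order, the median log2 difference of tested members was -0.45, 1.75 and -0.21, against -8.39e-05, -0.04 and 0.02 for all tested genes. In cortex it was -1.70 without cKO replicate 4 and 0.23 without control replicate 3, and edgeR gave 0.21. In hippocampus it was 0.83 without cKO replicate 4. For olfactory bulb the median was -0.83 without control replicate 1 and 0.07 without control replicate 3.

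P28 cortical libraries differed by their number in the labels. Controls 3 and 4 and cKO 4 carry labels of YC157 and above, and they are the 3 cortical libraries whose labels name tamoxifen. P2ry12 read 47.5, 23.4, 299 and 214 among the 4 controls, and the 4 cKO libraries read 22.4, 101, 63.1 and 483. Csf1r read 31.7, 29.2, 341 and 141 in controls and 26.9, 18.9, 19.98 and 481 in cKO. Mrc1 read 0, 0, 351 and 67.1 in controls and 10.1, 5.24, 21.6 and 539 in cKO. For all 3 genes the later-numbered libraries lay above the other 5, in both genotypes. The means over the 3 later-numbered and the other 5 libraries were 332 and 51.4 for P2ry12, 321 and 25.3 for Csf1r and 319 and 7.38 for Mrc1. Ikzf1 and P2ry13 averaged 29.2 and 57.4 in the later-numbered libraries and 0 in the others. Sall1 overlapped, at 109 to 242 across the 8 libraries (means 207 and 181). Libraries were split by number after these values were seen, and several members passed the filter only through the later-numbered libraries, so no test of the split is given. In the later-numbered libraries endothelial genes summed to 436 to 705, against 41.5 to 261 in the other 5. Oligodendrocyte genes summed to 8730.0 to 14693 against 2743 to 6230.2, and dissociation response genes to 1314 to 2502 against 577 to 708. Astrocyte genes summed to 155952 to 217641, against 245379 to 311359. Library number and tamoxifen label cannot be told apart in cortex, and the part of the other cell types was not tested.

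In hippocampus the one later-numbered library, cKO replicate 4, was the highest of the 6 for 31 of 33 members. This order was not counted over all genes. In each of the other hippocampal libraries at P28, 14 to 24 of the 33 members had 3 or fewer reads. P2ry12 read 26.6 and 31.1 in controls and 37.8, 173, 75.1 and 191 in cKO. Csf1r read 18.8 and 10.7 in controls and 8.71, 31.8, 59.9 and 200.2 in cKO, and Mrc1 2.35 and 2.67 against 17.4, 4.33, 3.99 and 343. No hippocampal control carries a label of YC157 or above, so genotype and number cannot be told apart for that library. The exceptions were Sall1 and Fcer1g, highest in cKO replicate 2, which had little Rn45s (Fcer1g 0, 133, 1.60 and 30.03 in cKO). In olfactory bulb control 3 and cKO 3 are later-numbered. P2ry12 read 97.6, 73.2 and 159.9 in controls and 67.9, 108 and 196 in cKO, highest in those 2 libraries. Csf1r averaged 39.9 in them and 31.0 in the other 4, with overlap.

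**Figure D5:**
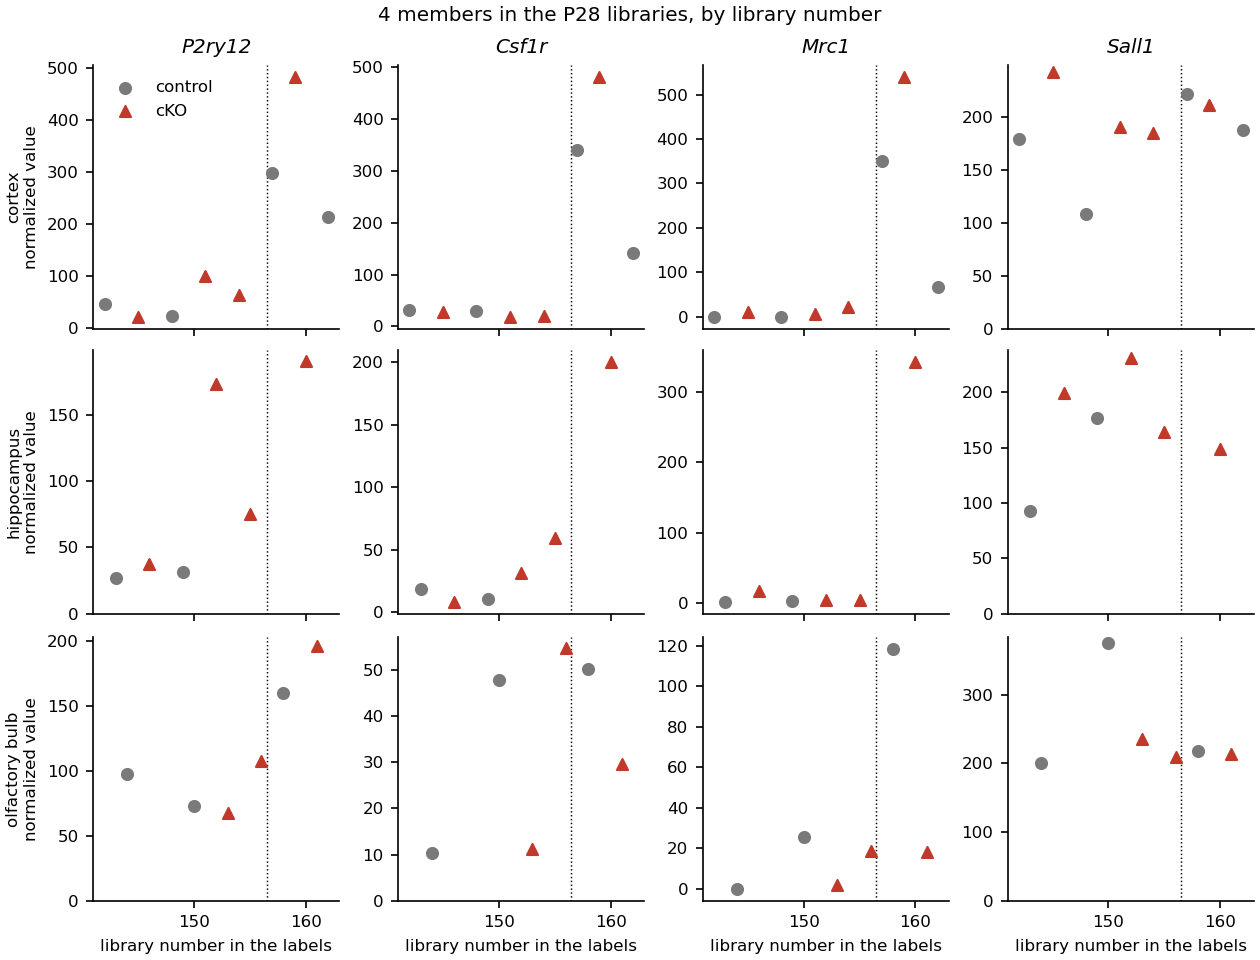
Normalized values of P2ry12, Csf1r, Mrc1 and Sall1 in each P28 library against its number in the labels, with controls as circles and cKO as triangles and a dotted line before YC157, for cortex, hippocampus and olfactory bulb. In cortex the 3 libraries right of the line are above the other 5 in both genotypes for P2ry12, Csf1r and Mrc1.

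Other microglia genes were followed through a list of 30 that holds no member, 29 of them in the tables. In cortex 18 of 24 tested were higher at P14 than P1 (24.0% of all genes) and 0 lower (40.3%), with a median of 1.37 (log2). Itgam, a chain of complement receptor CR3, rose most, from a mean of 27.8 to 431 (log2 3.89, SE 0.46, limma adjusted p = 6.79e-06). In hippocampus 8 of 17 tested were higher (11.2% of all genes) and 1 lower (6.92%) at P7 than P1. In olfactory bulb 6 of 10 were higher (7.59%) and 1 lower (2.98%). The lower gene was Tgfbr1 in both, a TGF-beta receptor chain that other brain cells also carry, at -1.04 and -1.14 (log2). From P7 to P14 in hippocampus, 0 of the 17 were higher (12.5% of all genes) and 4 were lower (17.7%). Of 15 other border macrophage genes, 7 were tested in cortex. Between P1 and P14, 0 were higher (24.0% of all genes) and 1 was lower (40.3%). That was the transcription factor Maf, at -0.85 (log2), named after its value was seen. In hippocampus 6 of these genes were tested. From P7 to P14, 0 were higher (12.5% of all genes) and 1 was lower (17.7%). That was Lyve1, a hyaluronan receptor, which fell by 5.07 (log2, limma adjusted p = 0.000396). From P1 to P7, 1 was higher (11.2%) and 0 were lower (6.92%). That was Dab2, at 2.05 (log2), also named after its value was seen. In olfactory bulb 5 were tested, and Dab2 was higher than at P1 by 2.87 at P7 and 3.29 at P14 (log2). Lyve1 fell there by 1.99 from P7 to P14.

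Genes outside the members with a similar pattern were found by the mean r with the members' mean profile over the 6 tables of 6 to 10 libraries, whose median was -0.03 over the 9556 genes tested in all 6. Among the 10 genes with the highest mean r were Rnase4 (0.765), Lcp1 (0.759), Itgam (0.751), Mpeg1 (0.746), Stab1 (0.706), Abca9 (0.705), Nckap1l (0.698) and Per3 (0.691). The mean hides differences between tables. In a single table r was as low as -0.1854 for Nckap1l, in P28 olfactory bulb. It was 0.3069 for Rnase4 in hippocampus and 0.3077 for Stab1 in olfactory bulb, both over the developmental libraries. The other genes named here had higher lowest values. These points share library and depth. Itgam and Nckap1l are also on the list of other microglia genes, and Stab1 is on that of other border macrophage genes.

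Ligands of the members' receptors were measured in the same libraries. Csf1, a growth factor of Csf1r, rose in cortex from 46.2 ± 15.4 at P1 to 105.3 ± 8.20 at P7 (SD, n = 3 each, log2 1.23, SE 0.27, adjusted p = 0.00315, limma) and was 80.9 ± 20.6 at P14 (n = 4). In olfactory bulb it was higher at P14 than at P1 by 2.44 (SE 0.45, adjusted p = 0.000849, limma), and in hippocampus no pair of ages passed. Il34, the other Csf1r ligand, was under the filter in all 6 tables, with group means from 0 to 8.98. Cx3cl1 in hippocampus was 4.53 ± 2.69 at P1 and 50.1 ± 48.4 at P7, which did not pass (adjusted p = 0.0606, limma), and fell from P7 to P14 (log2 -3.04, adjusted p = 0.0349, limma). In cortex Cx3cl1 also fell from P7 to P14 (log2 -1.35, adjusted p = 0.0226, limma), and P1 to P7 did not pass (1.12, adjusted p = 0.0858, limma). In olfactory bulb neither step passed, at 3.85 from P1 to P7 and -2.39 from P7 to P14 (log2, limma adjusted p = 0.0548 and 0.105).

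Markers of circulating leukocytes were low. Of 17 genes of monocytes, neutrophils and lymphocytes, 16 were in the tables. They summed to 0 to 11.03 normalized units in the developmental libraries, where none passed the filter. They summed to 0 to 12.1 in P28 cortex except for 103 in cKO replicate 4, and to 109 to 145.7 in P28 olfactory bulb controls against 6.97 to 26.6 in cKO. Only 2 of these genes passed the filter in P28 olfactory bulb, and 0 were called between genotypes by limma. The 7 red blood cell genes summed to 0 to 46.2 over all 48 libraries.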

How the data were processed

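Bulk RNA-seq was measured in 48 mouse astrocyte libraries of 15 groups. Per the submitters' processing notes, reads were processed with STAR 2.5.0a and DESeq2 1.20.0 on mm10; the counting program, annotation and strand setting are not given in the sources used here. The 6 deposited tables hold a normalized signal, counts divided by 1 factor per library, scaled separately per table, so tests stayed within a table and levels set side by side across tables share no scale. Whole reads were recovered (100% of values within 0.05 of a whole number), which gave library depths and RPKM; recovery in olfactory bulb P28 cKO replicate 2 could be checked only weakly.

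The test was limma 3.58.1 (R 4.3.3, trend) on log2(value + 1) for genes with a table mean of at least 10, with Benjamini-Hochberg adjustment over all of them and a threshold of 0.05; the script was tested on simulated data. Alternatives were pseudocount 8, no filter, TMM scaling, edgeR 4.0.16 and DESeq2 1.42.0 on recovered reads, leaving out each library, and a term for libraries labelled YC157 and above. A fold change on the log2(value + 1) scale understates that of low genes. All 33 members could be named; other genes were named as ligands, as the largest rise or fall of a list, or as the 10 of most similar pattern, 2 of which are not reported here. Members and lists were chosen with earlier results of these data known.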

Additional observations from a re-analysis of the deposited data

Results flagged for a closer look

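In groups of 4 libraries, 30 of 101 sets of values for a member or the members' sum had 1 library standing apart by Dixon's test. The threshold is about 1 in 20 for a single set by chance. These sets share libraries and vary together, and several members passed the filter only through later-numbered libraries, so the count of 30 is a description. Of the 30, 21 were the highest value in cortex P28 cKO replicate 4, a later-numbered library. Its normalized values were 222.6 for Cx3cr1, 482.6 for P2ry12, 113.2 for P2ry13, 480.7 for Csf1r, 140.1 for Siglech, 170.8 for Fcrls, 56.61 for Selplg, 92.11 for Olfml3, 37.42 for C1qa, 140.1 for C1qb and 110.3 for C1qc. They were 39.34 for Fcgr3, 173.7 for Ctss, 54.69 for Cd68, 100.7 for Lyz2, 56.61 for Ptprc, 89.23 for Cd53, 78.67 for Ly86, 52.77 for Ikzf1, 539.2 for Mrc1 and 3884 for the members' sum. In hippocampus P28 cKO replicate 4, also later-numbered, 7 members stood apart as highest. They were Gpr34 at 40.04, Siglech at 41.58, Fcrls at 72.39, C1qc at 62.38, Ctss at 90.1, Lyz2 at 77.01 and Mrc1 at 342.7. Lyz2 stood apart at 76.73 in cortex P28 control replicate 3, and Gpr34 was lowest, at 28.75, in cortex P14 replicate 1.

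Some members had differences of opposite sign in different regions, with every library of the later age on one side of the earlier age; these differences between regions were not tested. Lyz2 differed between P14 and P1 by -1.472 in cortex and 3.215 in olfactory bulb (log2). Sall1 differed between P7 and P1 by 0.615 (cortex), 0.4757 (hippocampus) and -0.6368 (olfactory bulb), where those of hippocampus and olfactory bulb did not pass (limma adjusted p = 0.110 and 0.0532). Aif1 differed between P14 and P7 by 1.237 in cortex and -2.774 in hippocampus, the latter from the fit without a filter.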

How the results depend on the processing

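No result turned direction among the called members under the alternatives run. Of 3194 values of single members under an alternative, 2962 kept their side of the threshold, 130 lost the call and the rest gained a call. A reversal was counted only for a member called in the main fit or the alternative, and there were 0. Members not called could change sign without being counted. The median log2 difference of tested members in P28 cortex went from -0.45 to 0.40 with a term for later-numbered libraries. The number of members changed in cortex between P1 and P7 was 5 by DESeq2. In hippocampus between P1 and P14 it was 9 by edgeR and 9 by DESeq2. In olfactory bulb it was 11 by edgeR and 12 by DESeq2 between P1 and P7, and 6 without a filter (1 higher, 5 lower) and 4 by DESeq2 between P7 and P14. The cause was not tested, except that the fit without a filter tested all 33 members.

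Leaving out 1 library gave 2 to 6 members changed in cortex between P1 and P7 (6 without P7 replicate 1), 9 to 22 between P7 and P14 (9 without P7 replicate 1 or 3, 11 without P14 replicate 4) and 17 to 22 between P1 and P14. It gave 2 to 10, 1 to 8 and 2 to 10 in hippocampus, and 5 to 8, 1 to 3 and 8 to 11 in olfactory bulb (1 without P7 replicate 2 between P7 and P14), in the same order. At P28 it gave 0 in each region. With libraries labelled below YC157 alone, chosen after seeing the data, 0 members changed at P28. With a term for later-numbered libraries 0 members changed between genotypes in cortex and olfactory bulb; it could not be fitted in hippocampus, where controls hold none. No paired analysis was possible because the labels number no replicates, and numbers assigned by accession pair no libraries. Members with few reads, most of all in olfactory bulb at P1, limit the folds that can be given.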
